A study of Mus musculus with 26 samples.

Results

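Open chromatin was examined at 9 mouse genes of fibroblast growth factor (FGF) and ERK signalling in embryonic stem (ES) cells, formative stem (FS) cells and epiblast stem cells (EpiSC). The genes were the ligands Fgf4 and Fgf8, the receptors Fgfr1 and Fgfr2, the feedback inhibitors Spry2, Spry4 and Dusp6, and the ETS transcription factors Etv4 and Etv5. They were chosen by name, and every ATAC-seq peak that overlapped the gene or the 50 kb on either side of it on GRCm38 (mm10) was taken. These 9 of 21883 protein-coding genes held 653 of the 451563 peaks in the 26 deposited lists. After overlapping peaks were merged, 87 of 75600 union regions lay at them. ATAC-seq reads open chromatin from the places where the Tn5 transposase can insert adapters, and a peak in a population does not tell more open cells apart from more insertions per cell.

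Each library came from 50000 cells. In the first set, ES cells at passage 16 were kept in 2iL, a name commonly used for medium with LIF and inhibitors of MEK and GSK3. FS1 at passage 21 and FS2 at passage 29 were kept in A3XR. EpiSC_AF at passage 22 were kept in AF, and EpiSC_AFX1 at passage 14 and EpiSC_AFX2 at passage 16 in AFX. All 6 groups had 3 libraries. A second set, named Rd2, held 2 libraries of ES cells at passage 33 in 2iL, 2 of EpiSC at passage 16 in AFX, and 4 of EpiLC, which are ES cells moved for 2 days into AF with KSR and sorted for low GFP. The source label of the ES cells of this set was Rd2GFP, and the other labels were Rd2AFX and Rd2EpiLC. The labels spell out none of the media and do not say whether libraries of a group came from separate cultures, so each p-value measures the spread between these libraries, which may be technical. FS1 and FS2 together are called FS, and EpiSC_AFX1 and EpiSC_AFX2 together EpiSC_AFX. The tests took the 6 libraries of each of these types as independent, although they came in 2 groups of 3. ES and EpiSC_AF of the first set were a single group each, so cell type cannot be told apart from other traits of that group, such as its passage. Each cell type also had its own medium. Cell type therefore cannot be told apart from medium in any comparison here, FS against EpiSC_AFX included.

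FGF ligands bind receptor tyrosine kinases of the Fgfr family, which pass the signal through RAS and RAF to the kinases MEK and ERK. ERK activity raises transcription of the Etv4 and Etv5 genes and of genes whose products damp the pathway, among them the Sprouty proteins and the ERK phosphatase Dusp6. In mouse pluripotent cells Fgf4 is the main autocrine ligand, blocking MEK helps to hold cells in the naive state, and FGF signalling carries them toward the epiblast states that FS cells, EpiLC and EpiSC represent.

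The promoters that carried a peak are shown first because the peaks discussed below sit on them. RefSeq's GRCm38.p6 table held a promoter for Fgf4, Fgfr2, Spry2, Dusp6 and Etv5. The runs are the 250 bases before the start of the gene, 5′ to 3′ on the gene's strand, and capitals mark GC boxes (GGGCGG, searched on both strands).
Fgf4, plus strand, chr7:144861136-144861385: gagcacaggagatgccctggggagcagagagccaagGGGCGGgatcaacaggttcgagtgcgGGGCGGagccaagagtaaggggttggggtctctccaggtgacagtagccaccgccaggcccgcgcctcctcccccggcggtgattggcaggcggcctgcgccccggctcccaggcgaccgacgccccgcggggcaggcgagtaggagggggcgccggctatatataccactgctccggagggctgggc
Dusp6, plus strand, chr10:99262981-99263230: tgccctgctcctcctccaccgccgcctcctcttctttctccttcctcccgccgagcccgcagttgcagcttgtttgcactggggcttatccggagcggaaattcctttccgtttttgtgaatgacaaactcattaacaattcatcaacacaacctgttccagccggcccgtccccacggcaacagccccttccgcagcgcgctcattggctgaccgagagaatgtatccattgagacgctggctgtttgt
Etv5, minus strand, chr16:22439571-22439820: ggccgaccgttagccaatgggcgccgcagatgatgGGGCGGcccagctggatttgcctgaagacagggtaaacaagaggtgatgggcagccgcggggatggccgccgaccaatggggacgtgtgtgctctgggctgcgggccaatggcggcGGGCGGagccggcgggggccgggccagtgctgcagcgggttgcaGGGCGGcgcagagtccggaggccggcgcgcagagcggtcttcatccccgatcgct
Spry2, minus strand, chr14:105896820-105897069: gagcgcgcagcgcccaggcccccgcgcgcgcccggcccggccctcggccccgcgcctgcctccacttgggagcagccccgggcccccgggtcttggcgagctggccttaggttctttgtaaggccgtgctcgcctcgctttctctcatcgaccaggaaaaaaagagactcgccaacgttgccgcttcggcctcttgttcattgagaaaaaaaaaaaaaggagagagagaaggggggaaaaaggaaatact

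A peak overlapped the Etv5 stretch in 25 of 26 lists and covered all 250 bases of it in 17. The Fgf4 stretch was overlapped in 24 lists, 9 of them over all 250 bases, and the Dusp6 stretch in 22, 6 of them over all. At Spry2, 12 lists had a peak that reached between 9 and 72 bases into the stretch, at the end far from the gene. No list had a peak on the Fgfr2 stretch. Etv5 held 3 GC boxes and Fgf4 held 2, against at least 1 in 32.7% of the 32841 RefSeq promoters cut the same way. Dusp6 and Spry2 held none. None of the 4 stretches shown held the ETS letters CCGGAAG (6.91% of all promoters), the AP-1 letters TGANTCA (6.75%), the OCT letters ATGCAAAT (1.6%), the SOX letters CTTTGTT (5.03%), the ESRRB letters AAGGTCA (4.08%), the ZIC letters CAGCAGG (8.44%) or the TATA letters TATAAA (12.4%), each searched on both strands. The GC content was 71.2% at both Fgf4 and Etv5, 62.4% at Spry2 and 56.4% at Dusp6, where the median promoter had 52.4%. These matches describe letters only.

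The lists were of unequal length, which bears on every count below. ES lists held 8044 to 10961 peaks, FS1 lists 23883 to 31263, FS2 lists 11796 to 14147, EpiSC_AF lists 15505 to 24824, EpiSC_AFX1 lists 17701 to 27485 and EpiSC_AFX2 lists 25641 to 29575. Rd2 ES lists had 471 and 2576 peaks, Rd2 EpiLC lists 7469 to 26045, and Rd2 AFX lists 10719 and 11252. The sequencing depth was unknown. Libraries of the first set were therefore compared mainly on their 8044 peaks with the highest −log10 p ("equal length"), and the full lists are given beside them. At equal length, ES libraries had a peak at an end of 3 or 4 of 8 naive marker genes, an end being taken as the 1 kb around it. The naive count was 1 to 3 in FS1, 1 or 2 in FS2, 2 in EpiSC_AF and 2 or 3 in EpiSC_AFX, and in the full lists 3 or 4 in ES, 1 to 3 in FS2 and 4 or 5 in the others. Of 7 formative or primed markers, 0 to 2 had such a peak in ES, 3 in each FS1 library, 0 to 2 in FS2, 4 or 5 in EpiSC_AF and 3 or 4 in EpiSC_AFX. FS2 2 had none of these 7 and was the only first-set library outside ES without one. No ES library had a peak at any of 6 differentiation or feeder genes, and no other library of the first set had more than 1 at equal length. In the full lists 0 of the 6 had one in ES, 2 or 3 in FS1 and EpiSC_AF, 1 in FS2 and 1 to 3 in EpiSC_AFX, and their part in the results was not tested.

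The library ES 1 stood apart from ES 2 and ES 3 at these genes. At equal length it held 6 regions that neither other ES library held and that were present in 8 or more of the other first-set libraries. These were the ends of Fgfr2, Spry2, Dusp6 and Etv4, a region inside Fgfr1 and the end of the neighbouring gene Letm2. ES 2 and ES 3 had 0 such regions each. Genome-wide, 297 regions were held by all 12 FS and EpiSC_AFX libraries and by neither ES 2 nor ES 3, and ES 1 held 99 of them. Counted the same way, ES 2 held 57 of 255 and ES 3 held 62 of 260. ES 1 was also the only ES library with gene-end peaks at the formative markers Pou3f1 and Zic2. It had none at the other formative or primed markers, Otx2, Fgf5, Tcf15, Dnmt3b and Sox3. At naive markers ES 1 did not stand apart, with an end peak at 4 of 8, beside 3 in ES 2 and 4 in ES 3. The part of ES 1 in the results was not tested beyond leaving it out, which is given where it changes a value.

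Of the 87 regions, 43 lay between genes, 17 inside a member gene, 12 within 1 kb of a member's end, 8 at the end of another gene and 7 inside another gene. The regions at member ends were the most widely shared: 9 of the 12 had a peak at equal length and 6 of the 12 were present in 9 or more of the 18 equal-length lists. Between genes, 7 of 43 had a peak at equal length and none was present in 9 or more lists. A peak in only 1 of the 26 lists accounted for 28 regions, 20 of them between genes. The median length was 874 bases at member ends and 254 bases between genes. The windows also took in ends of neighbouring genes, namely Fgf3, Fgf15 and LTO1 beside Fgf4, Npm3 and Oga beside Fgf8, Letm2 and Nsd3 beside Fgfr1, and Dhx8 beside Etv4, and a peak there cannot be assigned to the member. Near the limit of the window, the outermost regions taken were 49.5 kb (1 of 26 lists) and 49.2 kb (13 of 26) from Fgf4, and the nearest left out were 52.8 kb from Fgfr1 (12 of 26) and 52.8 kb from Fgf8 (24 of 26).

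**Figure D1:**
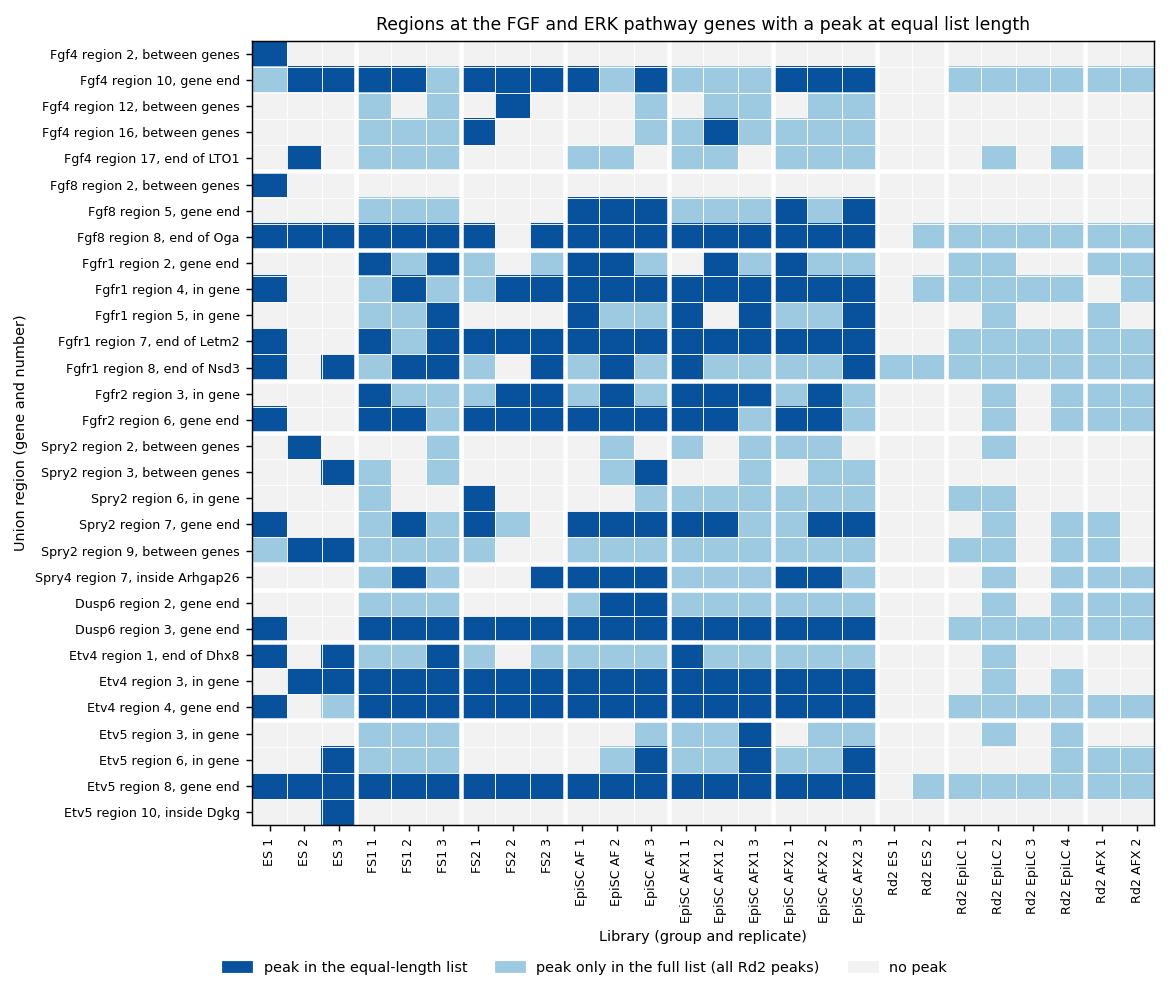
Rows are the 30 union regions with a peak at equal list length in at least 1 library, ordered along each gene, and columns are the 26 libraries. Dark blue is a peak in the equal-length list, light blue a peak only in the full list (all Rd2 peaks are drawn so), and grey no peak; the Etv5 end (region 8) is dark in all 18 first-set columns, and the Dusp6 end (region 3) is empty in ES 2 and ES 3.

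**Figure D2:**
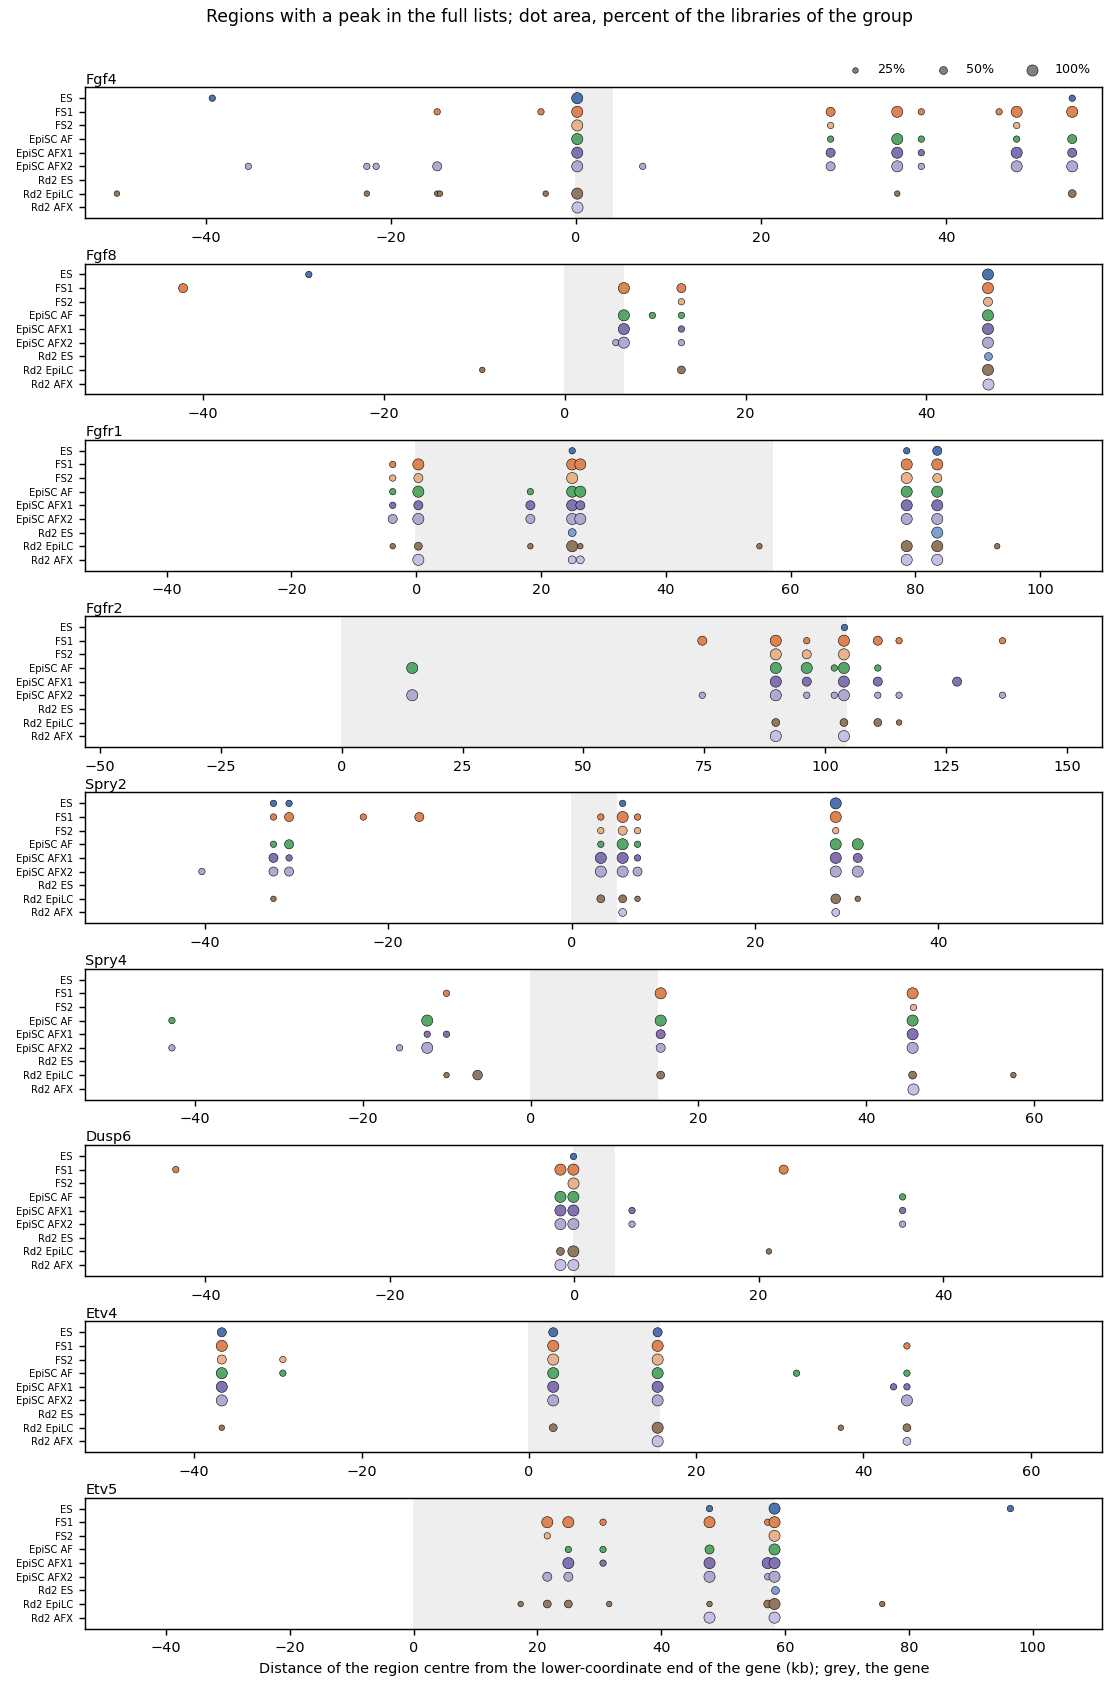
For each gene, the horizontal axis is the distance of a region's centre from the lower-coordinate end of the gene (kb), grey is the gene, each row is a group, and dot area is the percent of that group's full lists with a peak. The dots that fill the most rows stand at the gene's own end for Fgf4, Fgfr2, Dusp6, Etv4 and Etv5. At Spry2 the end and a distal region fill equally many rows. The Rd2 ES row is nearly empty.

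Fgf4 encodes a secreted FGF that pluripotent cells make and respond to. The gene spans chr7:144861386-144865245, and the peak at its start (union region chr7:144861046-144861981) overlaps the promoter shown above. All 18 first-set libraries, all 4 EpiLC libraries and both Rd2 AFX libraries had this peak in the full lists, and neither Rd2 ES library had it. Its place within a list varied more than its presence. The percentile of the peak by −log10 p in its own list was 16.9, 95.1 and 65.8 in ES 1 to 3, 91.3, 95.3 and 71.9 in FS1, 78.4, 40.6 and 84.3 in FS2, and 50.6, 60 and 74.8 in EpiSC_AF. In EpiSC_AFX1 it was 48.5, 35.8 and 69.5, and in EpiSC_AFX2 96.6, 89.7 and 96.1. The EpiSC_AFX groups, both kept in AFX, did not overlap in this measure, which also depends on list length. At equal length the peak was present in 0 of 3 EpiSC_AFX1 and 3 of 3 EpiSC_AFX2 libraries. This difference was noticed after the values were seen and was not tested, since 3 libraries against 3 cannot reach an exact p of 0.05.

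Distal regions near Fgf4 had peaks mainly in the full lists. A region 43.5 kb above the gene (chr7:144908763-144909129, between genes) had a peak in the full lists of 0 of 3 ES, 3 of 3 FS1, 1 of 3 FS2, 1 of 3 EpiSC_AF, and all 6 EpiSC_AFX libraries. At equal length it was present in 1 FS2 and 1 EpiSC_AFX1 library. The region 30.3 kb above Fgf4 lies at an end of Fgf15, another FGF gene, and had a peak in the full lists of 0 ES, 3 FS1, 0 FS2, 3 EpiSC_AF and 6 EpiSC_AFX libraries, with none at equal length. Peak numbers over the whole Fgf4 window at equal length were 1, 2 and 1 in ES, 1, 1 and 0 in FS1, 2, 2 and 1 in FS2, 1, 0 and 1 in EpiSC_AF, 0, 1 and 0 in EpiSC_AFX1, and 1, 1 and 1 in EpiSC_AFX2. All groups overlapped.

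Fgf8, a ligand of the primitive streak and later signalling centres, spans chr19:45736491-45742941. A peak at its higher-coordinate end (chr19:45742737-45743328) was present in the full lists of 3 of 3 FS1, 3 of 3 EpiSC_AF, 3 of 3 EpiSC_AFX1 and 3 of 3 EpiSC_AFX2 libraries. It was absent from all 3 ES, all 3 FS2 and all 8 Rd2 libraries, EpiLC included. Cut to equal length, it remained in 3 of 3 EpiSC_AF and 2 of 3 EpiSC_AFX2 libraries and in no other. Its percentile in the full list was 78.5, 73.3 and 86.3 in EpiSC_AF, 81.5, 69.9 and 74.5 in EpiSC_AFX2, 18.7, 31.2 and 66.7 in EpiSC_AFX1, and 5.29, 52.5 and 73 in FS1. EpiSC_AF values did not overlap those of EpiSC_AFX1, and lay above those of FS1 only narrowly, 73.3 against 73. This percentile also depends on list length, and the difference was not tested. A second region in the Fgf8 window, at the end of Oga, had a peak in 24 of 26 full lists and in 17 of 18 at equal length, including all ES libraries and 2 of 3 FS2 libraries, which lacked the Fgf8 end.

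Fgfr1, the FGF receptor gene with the most peaks here, spans chr8:25518759-25575718. At equal length its window held 3, 0 and 1 peaks in ES, 2, 2 and 4 in FS1, 1, 2 and 3 in FS2, 4, 4 and 2 in EpiSC_AF, 4, 3 and 3 in EpiSC_AFX1, and 3, 2 and 4 in EpiSC_AFX2. ES 1 lay within the range of the EpiSC libraries, and ES 2 and ES 3 lay at or below the lowest of the other 15. The end region (chr8:25518573-25519637) had no peak in any ES library or Rd2 ES library, and a peak in the full lists of 5 of 6 FS, 3 of 3 EpiSC_AF, 5 of 6 EpiSC_AFX, 2 of 4 EpiLC and 2 of 2 Rd2 AFX libraries. It was present at equal length in 0 ES, 2 FS1, 0 FS2, 2 EpiSC_AF, 1 EpiSC_AFX1 and 1 EpiSC_AFX2 libraries. A region inside the gene, 24.6 kb from its nearer end (chr8:25543370-25544099), was more widely shared, with a peak in 22 of 26 full lists. At equal length it was in all 3 EpiSC_AF and all 6 EpiSC_AFX libraries, in 3 of 6 FS libraries, and in ES 1 alone among the ES libraries. The annotation used here gives no exons, so its place in an exon or intron was not determined.

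Fgfr2 encodes the receptor known for its part in extraembryonic lineages of the early embryo, and it spans chr7:130162451-130266808 on the minus strand. The peak nearest its start (chr7:130266140-130266536, 0.272 kb inside the gene) was in the full lists of ES 1 and of all 15 other first-set libraries, and at equal length in ES 1, 5 of 6 FS, 3 of 3 EpiSC_AF and 4 of 6 EpiSC_AFX libraries. A region 14.3 kb inside the gene from that end (chr7:130251973-130252535) had a peak in the full lists of 0 of 3 ES, 6 of 6 FS, 3 of 3 EpiSC_AF and 6 of 6 EpiSC_AFX libraries. It was also present in 2 of 4 EpiLC and both Rd2 AFX libraries and in neither Rd2 ES library. Its percentile was 43.1, 65.2 and 51.8 in the FS2 lists, and the part of list length in its absence from ES was not tested. The equal-length lists with it were 0 of 3 ES, 3 of 6 FS, 1 of 3 EpiSC_AF and 4 of 6 EpiSC_AFX libraries. Another region, 14.4 kb inside the other end of the gene, had a peak in the full lists of all 3 EpiSC_AF and all 3 EpiSC_AFX2 libraries and of no other library. At equal length no library had it.

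Spry2, a Sprouty gene whose product restrains receptor tyrosine kinase signalling, spans chr14:105891947-105896819 on the minus strand. The region at its start (chr14:105896998-105898034) had a peak in the full lists of ES 1, 5 of 6 FS, all 9 EpiSC, 2 of 4 EpiLC and 1 of 2 Rd2 AFX libraries. At equal length it was in ES 1, 2 of 6 FS, 3 of 3 EpiSC_AF and 4 of 6 EpiSC_AFX libraries. A distal region 23.4 kb above the gene (chr14:105920220-105921199) had the reverse pattern at equal length. It was present in ES 2 and ES 3, at ranks 4901 and 3420 of 8044, and in no other first-set library, while ES 1 had it only in its full list, at percentile 25.1. In the full lists it was present in 3 of 3 ES, 3 of 3 FS1, 1 of 3 FS2, 3 of 3 EpiSC_AF, 6 of 6 EpiSC_AFX, 3 of 4 EpiLC and 1 of 2 Rd2 AFX libraries. Fisher's exact test of its presence at equal length gave an unadjusted p of 0.0833 for ES against FS and the same for ES against EpiSC_AFX. The Spry2 window held 1, 2 and 2 peaks in ES at equal length, 0, 1 and 0 in FS1, 2, 0 and 0 in FS2, 1, 1 and 2 in EpiSC_AF, 1, 1 and 0 in EpiSC_AFX1, and 0, 1 and 1 in EpiSC_AFX2. With the 5000 strongest peaks, or with peaks ranked by fold enrichment, Spry2 passed an unadjusted exact permutation p of 0.05 as higher in ES against FS and against EpiSC_AFX. The shares of all genes passing in these settings were 7.55% and 9.65% against FS and 10.9% and 11.8% against EpiSC_AFX.

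Spry4 encodes a second Sprouty protein and had the fewest peaks of the 9 genes at equal length, with a mean of 0.389 per library over 18. Its end region, which also lies at an end of Arhgap26, had a peak in the full lists of 0 of 3 ES, 3 of 3 FS1, 0 of 3 FS2, 3 of 3 EpiSC_AF, 4 of 6 EpiSC_AFX and 2 of 4 EpiLC libraries, and in no list at equal length. A region 30.2 kb away, inside Arhgap26, had a peak in the full lists of 0 of 3 ES, 4 of 6 FS, 3 of 3 EpiSC_AF, 6 of 6 EpiSC_AFX, 2 of 4 EpiLC and 2 of 2 Rd2 AFX libraries. The equal-length counts were 0 ES, 1 FS1, 1 FS2, 3 EpiSC_AF, 0 EpiSC_AFX1 and 2 EpiSC_AFX2 libraries. No ES library of either set had any peak in the Spry4 window. Within Rd2, a region of 135 bases, 6.24 kb below the gene, was present in 3 of 4 EpiLC libraries and in no ES or AFX library. No first-set list held it, but the shortest first-set peak was 150 bases, so the sets were not compared here. This region was singled out after its values were seen.

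Dusp6 encodes a cytoplasmic phosphatase of ERK whose transcription follows ERK activity. The gene spans chr10:99263231-99267489, and the peak at its start (union region chr10:99262898-99263371) overlaps the promoter shown above. In the full lists the peak was present in ES 1, all 6 FS, all 9 EpiSC, all 4 EpiLC and both Rd2 AFX libraries, and absent from ES 2, ES 3 and both Rd2 ES libraries. The counts at equal length were the same in the first set, 1 of 3 ES and 15 of 15 other libraries. Among its 8044 peaks ES 1 placed it at rank 3176, within the range of ranks 1439 to 6708 of the FS and EpiSC libraries. Fisher's exact test gave an unadjusted p of 0.0833 against FS and against EpiSC_AFX, and the adjusted p was 0.62 and 0.503. Without ES 1, the groups separated completely, and the Dusp6 window then passed an unadjusted exact permutation test as lower in ES against FS (9.86% of all genes passed) and against EpiSC_AFX (12.9%).

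A second Dusp6 region lies 0.964 kb before the gene (chr10:99261187-99262267). Its full-list peak was in 0 of 3 ES, 3 of 3 FS1, 0 of 3 FS2, 3 of 3 EpiSC_AF, 6 of 6 EpiSC_AFX, 2 of 4 EpiLC and 2 of 2 Rd2 AFX libraries. At equal length it was left in EpiSC_AF 2 and EpiSC_AF 3 only, at ranks between 5179 and 5648. EpiSC_AF therefore held 1, 2 and 2 Dusp6 peaks at equal length, where every FS and EpiSC_AFX library held 1.

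Etv4 and Etv5 encode closely related ETS factors of the PEA3 group. Etv4 spans chr11:101769747-101785310 and had peaks at its higher-coordinate end (chr11:101784507-101785709) and 2.49 kb inside the other end (chr11:101772239-101773086). At equal length both peaks were present in all 15 FS and EpiSC libraries. In ES the end peak was in ES 1 alone and the inner peak in ES 2 and ES 3, so that each ES library held 1 of the 2. Counting full lists, the end peak was in ES 1, at percentile 79.7, and in ES 3, at percentile 13.7. Both Rd2 ES libraries lacked both peaks, all 4 EpiLC libraries had the end peak and 2 of 4 had the inner peak. Both Rd2 AFX libraries had the end peak and neither had the inner peak. At equal length the Etv4 window held 2, 1 and 2 peaks in ES, 2, 2 and 3 in FS1, and 2 in each FS2 library. Cutting the window to 20 kb, which drops the end of Dhx8, made Etv4 pass an unadjusted exact permutation p of 0.05 as lower in ES against FS (9.2% of all genes passed) and against EpiSC_AFX (11.7%).

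The Etv5 end was present in more lists than any other of the 87 regions. Etv5 spans chr16:22381313-22439570 on the minus strand, and the peak at its start (chr16:22439252-22440063) was in 18 of 18 equal-length lists and in 25 of 26 full lists. The list without it was the shortest, a Rd2 ES list of 471 peaks. Its percentile was 93.8, 93.4 and 95.1 in ES, 97.6, 92 and 97.6 in FS1, 95.3, 75 and 74.2 in FS2, 90.5 to 95.8 in EpiSC_AF and 92.1 to 98.3 in the EpiSC_AFX libraries. ES and EpiSC values overlapped, and the 2 lowest first-set values were both from FS2. The promoter before a second RefSeq start of Etv5, inside the gene, was overlapped in 7 full lists, among them all 3 EpiSC_AFX1 libraries, and in none at equal length. A region inside the gene, 9.95 kb from its nearer end, had a peak in the full lists of 1 ES, 3 FS1, 0 FS2, 2 EpiSC_AF, 6 EpiSC_AFX, 1 EpiLC and 2 Rd2 AFX libraries. At equal length it was in 1 ES, 0 FS1, 0 FS2, 1 EpiSC_AF, 1 EpiSC_AFX1 and 1 EpiSC_AFX2 library.

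**Figure D3:**
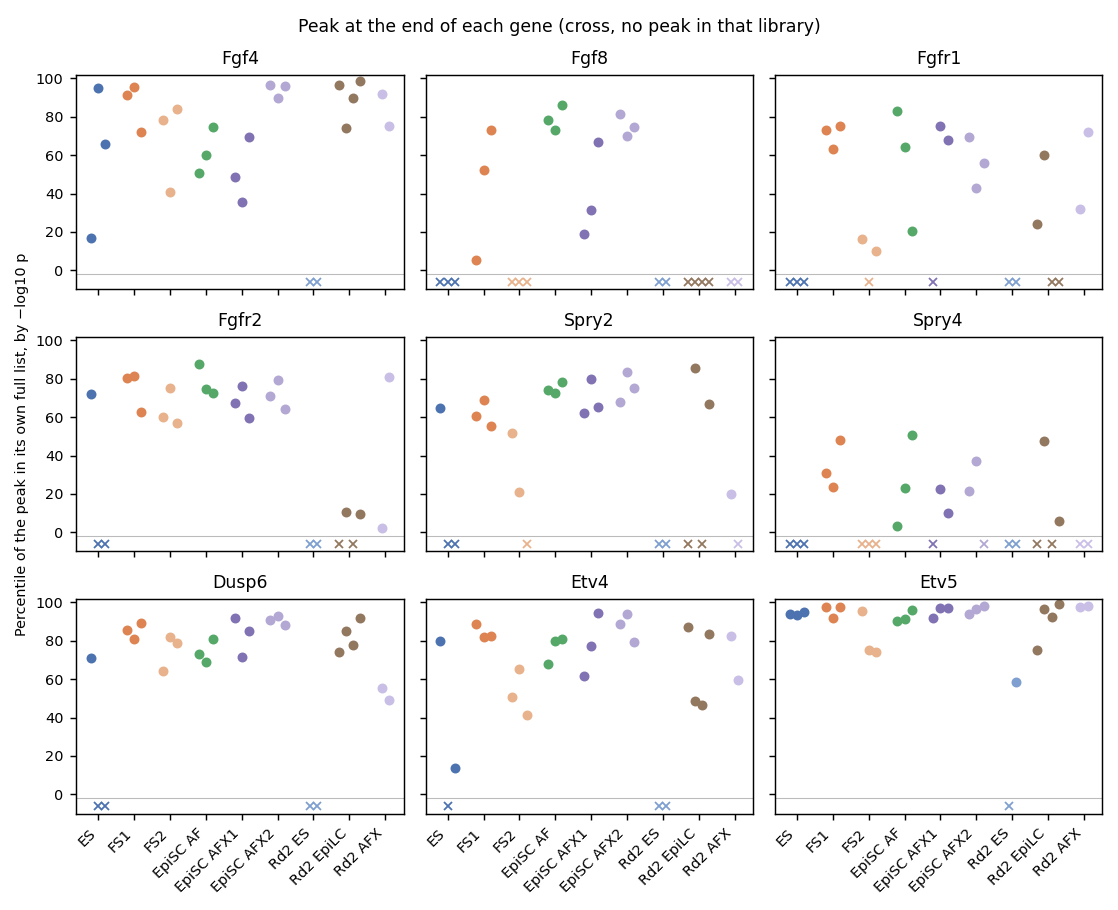
Each panel is the end region of 1 gene; the vertical axis is the percentile of the peak, by −log10 p, within its own full list, points are libraries in group columns, and crosses are libraries with no peak. Etv5 lies above 74 in all first-set libraries, Fgf8 has crosses for ES, FS2 and every Rd2 library, and Dusp6 has crosses for ES 2, ES 3 and Rd2 ES.

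Over all 9 windows the equal-length lists held 12, 7 and 10 peaks in ES, 10, 11 and 10 in FS1, 11, 10 and 12 in FS2, 14, 15 and 15 in EpiSC_AF, 13, 12 and 11 in EpiSC_AFX1, and 12, 12 and 13 in EpiSC_AFX2. The 3 ES libraries averaged 9.67 ± 2.52 peaks and the 3 EpiSC_AF libraries 14.7 ± 0.577 (SD, n = 3 each). The FS average was 10.7 ± 0.816 and that of EpiSC_AFX 12.2 ± 0.753 (SD, n = 6 each). ES overlapped FS and EpiSC_AFX, and EpiSC_AF lay above every other library. Counting only peaks within 1 kb of a member's ends gave 3 ± 1.73 in ES, 5.33 ± 0.816 in FS, 5.5 ± 1.38 in EpiSC_AFX and 7.33 ± 0.577 in EpiSC_AF (SD, same n). In the full lists the 9 windows held 7 to 14 peaks in ES, 33 to 42 in FS1, 12 to 21 in FS2, 29 to 39 in EpiSC_AF and 30 to 47 in EpiSC_AFX, an order that broadly followed the list lengths.

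**Figure D4:**
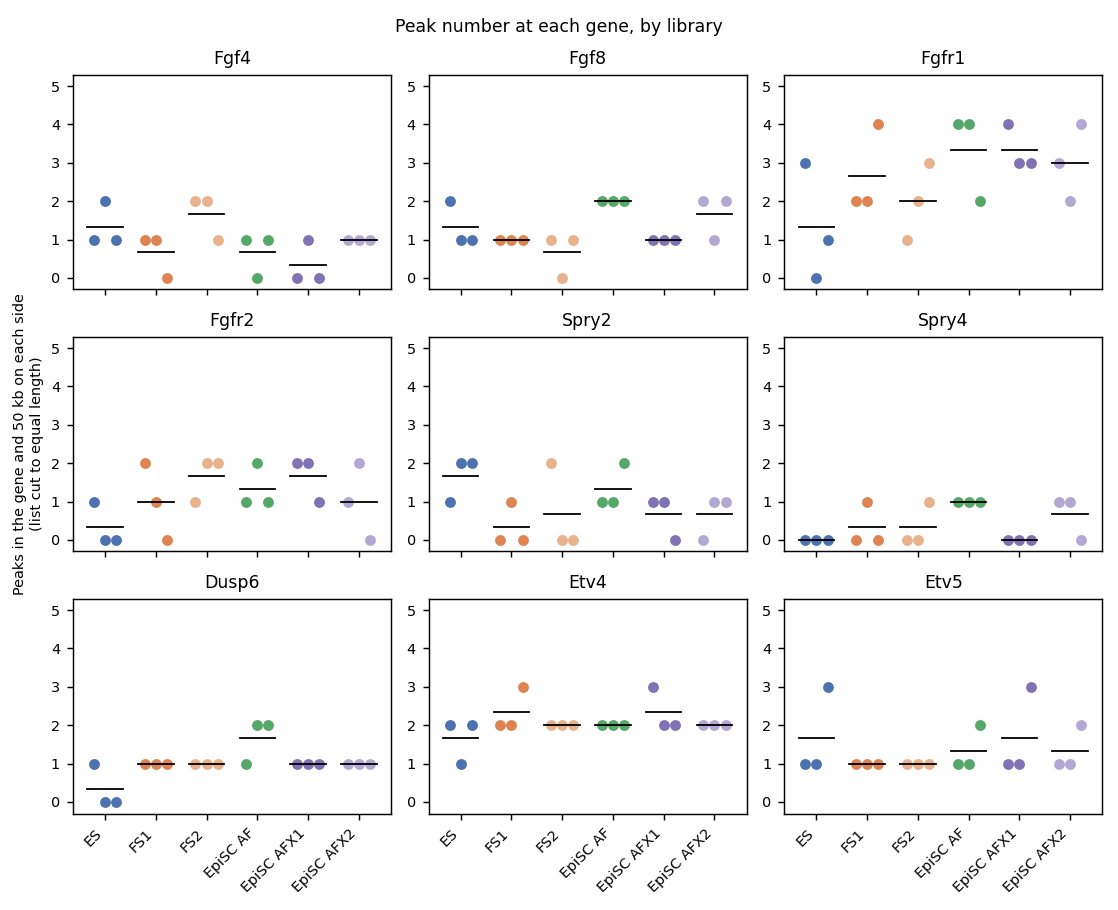
Points are the number of peaks over a gene with its 50 kb flanks in 1 equal-length list, by group of 3 libraries, and black bars are group means. Dusp6 is 1 in every FS and EpiSC_AFX library and 1, 0 and 0 in ES, and Fgf8 is 2 in all EpiSC_AF libraries and at most 1 in FS.

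The first comparison set ES against FS, naive against formative cells. At equal length none of the 9 genes passed an unadjusted exact permutation p of 0.05 for its peak number, while 11.7% of 17765 genes did in either direction. Dusp6 came nearest, with 0.333 ± 0.577 peaks (SD, n = 3) against 1 ± 0 (SD, n = 6) and a p of 0.0833 by the exact permutation test. Fgfr2 had 0.333 ± 0.577 against 1.33 ± 0.816, and Spry2 had the opposite sign, 1.67 ± 0.577 against 0.5 ± 0.837 (SD, same n). The median difference over the members was −0.333 peaks, beside −0.167 over all genes, and the mean difference −0.111 beside −0.271, so the order of members and all genes depended on the measure. No gene in the genome passed after Benjamini-Hochberg adjustment, 2086 at an unadjusted p under 0.05, and the smallest p that 84 assignments allow is 0.0119. Of 27 member regions, 0 were present in every library of 1 type and in none of the other, beside 3.84% of all regions. At the gene ends 0 members separated in this way, beside 1.94% of genes with an end peak in every FS library and no ES library. Without ES 1, the ends of Dusp6 and Etv4 separated as FS regions and the Spry2 distal region as an ES region, where 6.79% of all regions separated. The regions at Dusp6 and Etv4 are among those that set ES 1 apart, so their separation without it follows from that.

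In the full lists all 9 genes had fewer peaks in ES than in FS, as did 87.5% of all genes. Fgfr1 (1.33 ± 1.53 against 4.5 ± 1.38) and Fgfr2 (0.333 ± 0.577 against 3.5 ± 1.05) passed an unadjusted exact permutation p of 0.05, at 0.0238 and 0.0119, with adjusted p of 0.144 and 0.128. The background was 24.3% of genes. The region 14.3 kb inside Fgfr2 was the only 1 of 55 member regions held by all FS and no ES libraries, where 2.91% of all regions were. No member's end separated, beside 5.6% of genes. By Fisher's exact test 2 of 55 regions, the one inside Fgfr2 and the Fgfr1 end, had an unadjusted p under 0.05, where 7.46% of all regions did.

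Between ES and EpiSC_AFX at equal length, again 0 of 9 genes passed an unadjusted p of 0.05, beside 14.5% of 17501 genes. Fgfr1 was nearest, with 1.33 ± 1.53 peaks in ES (SD, n = 3) and 3.17 ± 0.753 in EpiSC_AFX (SD, n = 6), an exact permutation p of 0.0595. No region of 27 separated (5.35% of all regions) and no gene end (3.09% of genes). Without ES 1, Fgfr1 and Dusp6 passed, beside 12.9% of all genes. In the same setting 4 member regions separated as EpiSC_AFX regions, at the ends of Dusp6, Etv4 and Letm2 and inside Fgfr1, with the Spry2 distal region on the ES side, beside 9.03% of all regions. These 4 are among the regions that set ES 1 apart. In the full lists 8 of 9 genes, all but Fgf8, had fewer peaks in ES at an unadjusted exact permutation p under 0.05. Of all genes, 49.8% did so and 50.4% passed in either direction. For Fgfr1, Fgfr2, Spry4 and Dusp6 the Benjamini-Hochberg adjusted p of this test was 0.0324, the lowest of any gene. Across the genome 7382 of 20110 genes had an adjusted p under 0.05. The part of list length in these calls was not tested. In all, 7 of 64 member regions were held by all EpiSC_AFX and no ES libraries, beside 8.23% of all regions. They were the Fgf8 end, the upstream Dusp6 region, the region 14.3 kb inside Fgfr2, a region inside Spry2 (1.51 kb from its end), the region inside Arhgap26 near Spry4, and 2 distal regions of Fgf4. Fgf8 was the only member whose gene end separated, beside 15.9% of genes. By Fisher's exact test 11 of 64 regions had an unadjusted p under 0.05, all with more EpiSC_AFX libraries, where 14.4% of all regions did in either direction. The region and gene-end shares, 7 of 64 and 1 of 9, lay near those of all regions and genes.

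The next comparison set FS against EpiSC_AFX, formative against primed cells. At equal length 0 of 9 genes passed the peak-number test at an unadjusted p of 0.05 (2.78% of 16989 genes did), and Dusp6, Etv4, Fgfr2 and Spry4 had equal means in both types. Dusp6 held 1 ± 0 peaks in each type, Etv4 2.17 ± 0.408 and Fgfr2 1.33 ± 0.816 (SD, n = 6). None of 22 member regions separated, beside 0.182% of all regions. With full lists 0 genes passed (4.15% of genes did) and none of 69 regions separated (0.101%). The lowest full-list p of the peak-number test was 0.0952, for Spry2, with 3.17 ± 2.48 peaks in FS and 5.67 ± 1.75 in EpiSC_AFX. By Fisher's exact test of presence in the full lists, 1 of 69 regions, 26.2 kb above Spry2, had an unadjusted p under 0.05, where 0.709% of all regions did. It was present in 0 of 6 FS and 5 of 6 EpiSC_AFX libraries (exact p = 0.0152, adjusted p = 1) and in none of them at equal length. An exact permutation p that misses 0.05 with 6 libraries a side does not show that the types were alike.

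EpiSC_AF was set against FS and against EpiSC_AFX after the values had been seen. At equal length Fgf8 had 0.833 ± 0.408 peaks in FS (SD, n = 6) and 2 ± 0 in EpiSC_AF (SD, n = 3), without overlap, at an exact permutation p of 0.0119, the smallest that 84 assignments allow. The adjusted p was 0.902, and 3.25% of 16744 genes passed the unadjusted threshold. The Fgf8 end was the only 1 of 23 member regions that separated, beside 0.898% of all regions. The Fgf8 gene call was lost in the full lists, with the 5000 strongest peaks, with ranking by fold enrichment and with −log10 q of at least 5. As for the full lists, 3 of 61 member regions were in all 3 EpiSC_AF and none of the 6 FS libraries, where 0.308% of all regions were. They lay 26.2 kb above Spry2, 12.1 kb below Spry4 and 14.4 kb inside the lower-coordinate end of Fgfr2, and were also present in 5, 4 and 3 of the 6 EpiSC_AFX libraries. None of these 3 regions had a peak in any library at equal length. The part of list length in their full-list separation was not tested. Between EpiSC_AF and EpiSC_AFX at equal length 0 of 9 genes passed (1.73% of genes) and 0 of 22 regions separated (0.4%).

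The other genes of the pathway were read from a list of 46, all of them in the gene table. At equal length 5 of 45 genes passed an unadjusted exact permutation p of 0.05 between ES and FS, near the 11.7% of all genes. Frs2, an adaptor of the receptors, and Sos1, a RAS exchange factor, had more peaks in ES. Sos1 held 3 ± 0 in ES (SD, n = 3) and 2 ± 0 in FS (SD, n = 6). Among the genes with more in FS were the scaffold Ksr1 and the inhibitor Spred3, and Spred3 held 2.33 ± 0.577 in ES and 5.17 ± 0.753 in FS, without overlap. Between ES and EpiSC_AFX 6 of 44 passed, near the 14.5% of all genes, Dusp1 with more peaks in ES and the others, among them Fgfr3, Ksr1, Spred3 and Fosl1, with more in EpiSC_AFX. No pathway gene of 46 passed between FS and EpiSC_AFX. None of these calls survived Benjamini-Hochberg adjustment over all genes. Full lists gave counts of 8, 31 and 2 of 46, all with fewer peaks in the type named first, where 23.6%, 49.8% and 4.04% of all genes did so. Gene-end peaks held by all EpiSC_AFX and no ES libraries in the full lists were found at 14 of 44 pathway genes, beside 15.9% of all genes, among them Fgf5, Fgf15, Fgfr3, Spry1, Dusp1, Dusp4, Fos, Myc and Erf. For Dusp1 this was opposite in direction to its equal-length window count. Its end peak was also in all FS and no ES full lists.

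Among the 9374 genes with a mean of at least 1 equal-length peak, the genes whose peak numbers followed a member most closely over the 18 libraries were named by Pearson's r, as a description over libraries that share list construction. They were Adcy2 for Fgf8 (0.79), Dgkz and Creb3l1 for Fgfr1 (0.81 each), Kcnn3 for Fgfr2 (0.76), Daam2 for Dusp6 (1.00), Oprd1 for Etv4 (0.94) and Prpf38b for Etv5 (0.76). Peak numbers here take few values, and for Dusp6 only 4 of 18 libraries differ from 1. Fgf4, Spry2 and Spry4 had means below 1 and were not matched.

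The Rd2 set, read from full lists of its own, held 1 and 4 peaks at the 9 windows in ES, 13, 46, 8 and 30 in EpiLC, and 17 and 15 in AFX. The ends of Fgf4, Dusp6, Etv4 and Etv5 were present in all 4 EpiLC and both AFX libraries, whereas ES had the Etv5 end in 1 library and none of the other ends. The Fgf8 end was absent from all 8. EpiLC 1 and EpiLC 3, whose lists were the shorter ones, lacked the Fgfr2 end, the Spry2 end and the region 14.3 kb inside Fgfr2, which EpiLC 2 and EpiLC 4 had. The Fgfr1 end did not follow this split. It was present in EpiLC 1 and EpiLC 2 and absent from EpiLC 3 and EpiLC 4, the last with the longest EpiLC list. The Rd2 ES lists were the shortest of all 26, and the part of list length in these counts was not tested.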

How the data were processed

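ATAC-seq was read from 26 deposited peak lists, 1 per library, in mm10. Reads were processed with Trim Galore, Bowtie, Picard and MACS2, per the submitters' processing notes, and no versions were given in the sources used here. The authors deposited for each peak a score (10 times its −log10 q, tested on every peak), a fold enrichment ratio, and the −log10 of its p and of its q value, and these were used only to rank or filter peaks within a list. The lists hold no read counts, so depth was unknown and no interval from counts could be given. The shortest peak was 150 bases in the first set and 110 in Rd2, so the sets were not compared with each other.

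Each first-set list was cut to its 8044 peaks of highest −log10 p, the length of the shortest. Peaks overlapping by at least 1 base in any list were merged into union regions. A region was placed at a gene end within 1 kb of either end, and gene spans came from the RefSeq GRCm38.p6 table. Region presence was compared by Fisher's exact test and the peak number of each gene with 50 kb on each side by the exact permutation test over libraries, both two-sided and adjusted by Benjamini-Hochberg over all regions or genes. A region separated 2 types when every library of the first and none of the other held it. The 3 comparisons among ES, FS and EpiSC_AFX were planned, and those with EpiSC_AF were added after seeing the data. The members, gene lists and tests were chosen with earlier results of these data known. Regions were named by a rule: separated regions and, at each member, the end region and distal region held by most first-set libraries. Other regions were chosen after their values were seen. Among them was the region 14.4 kb inside Fgfr2, which separated only in the added comparison of FS with EpiSC_AF. Pairing by replicate number was checked by correlating deviations from group means. The r ran from −0.0574 to 0.0503 for same-numbered libraries and from −0.0612 to 0.066 for differently numbered ones, so no pairing was seen. Deviations from means of 3 libraries are noisy, so this check cannot show that same-numbered libraries shared no batch. Values of 1 gene of the pathway list are not reported here. Scripts were tested on simulated data. Python 3.11.15, numpy 2.4.6, pandas 2.3.3, scipy 1.17.1 and matplotlib 3.10.9 were used.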

Additional observations from a re-analysis of the deposited data

How the results depend on the processing

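Values are given in the order separated regions, genes at an unadjusted exact p under 0.05, and difference in mean peaks over the 9 windows (first type minus second), where at equal length ES against FS gave 0, 0 and −1, ES against EpiSC_AFX 0, 0 and −2.5, FS against EpiSC_AFX 0, 0 and −1.5, FS against EpiSC_AF 1, 1 and −4, and EpiSC_AF against EpiSC_AFX 0, 0 and 2.5. For ES against FS, full lists gave 1, 2 and −16, and ranking by fold enrichment gave 1, 1 (Spry2) and 0.833. The 5000 strongest peaks gave 1 gene (Spry2) and a difference of 2, a −log10 q of at least 5 gave a difference of −4.5, and windows of 20 kb gave 1 gene (Etv4) and −3.33. The sign of this difference was thus reversed in the 5000 strongest peaks and under ranking by fold. Leaving out 1 library gave 0 to 3 regions, 0 to 1 genes (Dusp6 without ES 1, Spry2 without FS2 1) and differences of −2.17 to 0.333, the last without ES 2.

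For ES against EpiSC_AFX, full lists gave 7, 8 and −27, the 5000 strongest peaks gave 1 gene and a reversed difference of 1.17, ranking by fold gave 1 gene and 0, a −log10 q of at least 5 gave 2, 2 (Dusp6 and Etv4) and −10, and 20 kb gave 2 genes (Fgfr1 and Etv4) and −4.83. Leaving out 1 library gave 0 to 5 regions, 0 to 2 genes and −3.67 to −1.17. For FS against EpiSC_AFX, full lists gave −11 and a −log10 q of at least 5 gave −5.5, and leaving out 1 library gave 0 to 1 genes (Fgfr1, without FS1 3) and −1.77 to −1.33.

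For FS against EpiSC_AF, full lists gave 3, 0 and −7, the 5000 strongest peaks 0, 0 and −1.33, ranking by fold 0, 0 and −1.83, and a −log10 q of at least 5 gave 0, 0 and −6.17. Leaving out 1 library gave 1 to 2 regions, 1 to 2 genes (Dusp6 joined Fgf8 without EpiSC_AF 1) and −4.33 to −3.83. For EpiSC_AF against EpiSC_AFX, full lists reversed the difference to −4, and the 5000 strongest peaks, ranking by fold and a −log10 q of at least 5 gave 0.5, 1 and 0.667. Leaving out 1 library gave 0 to 1 regions and 0 to 1 genes, both without EpiSC_AF 1, and 2.27 to 2.83. A required overlap of 50% moved none of these values past the spread between libraries. With the replicate block the gene counts of the 5 comparisons were 0, 0, 0, 1 and 0, as without it. Apart from the shorter or longer lists and fewer libraries that each setting itself brings, the cause of these shifts was not tested. Unknown depth and 3 libraries per group limit every comparison: the smallest p of 3 against 6 libraries is 0.0119, and a region absent from a list may have fallen below its threshold.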
